A study of Mus musculus with 18 samples.

Results

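Basophils that had lost Cebpa were set against mast cells grown from bone marrow, to see which mast cell genes the deleted cells had not reached and which basophil genes they kept. The comparison rests on 6 of the 18 arrays of the study, chosen by their labels, with 3 arrays a side. The deleted cells were purified basophils of genotype Cebpa f/f RosaYFP/creER, which spent 5 days in culture with interleukin-3 at 20 ng/ml and with 100 nM 4-hydroxytamoxifen, the drug that activates the Cre recombinase. Treated wild type basophils were Cebpa +/+ RosaYFP/creER cells in the same culture with the same drug, and both genotypes were also cultured without it. Freshly purified basophils were taken from the marrow of mice 3 days after an injection of interleukin-3 bound to an anti-interleukin-3 antibody. The mast cells were bone marrow cells grown for 4 weeks with the same amount of interleukin-3 and no drug; the labels give them no genotype and do not say that they were purified. All groups came from C57Bl/6 mice. Deleted cells and mast cells therefore differ in time in culture, drug and cell type at once. They may also differ in the Cre and reporter alleles. These differences cannot be told apart in this comparison. No label states that replicates are separate animals or separate cultures. The p-values therefore reflect the spread among these arrays alone, and it may be technical. In bulk RNA, fewer cells that express a gene and less of its RNA per cell cannot be told apart.

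Mast cells and basophils both carry the high-affinity IgE receptor and release histamine, proteases and cytokines from granules. Mast cells are long-lived tissue cells that depend on Kit, the receptor for stem cell factor, and on the transcription factor Mitf, and they store tryptases, chymases and heparin. Basophils are short-lived blood granulocytes. In mice they store their own proteases, such as Mcpt8 and Prss34, and make interleukin-4 on activation. Cebpa is a transcription factor of the granulocyte lineage, and the study concerned the basophil genes that it regulates.

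The arrays carried 26423 probes, of which 21876 had 1 gene symbol, for 19084 genes. Median raw intensity was 33 to 35 on the arrays of deleted cells and 26 to 31 on those of mast cells, and 48.2% to 51.7% of probes on these 6 arrays exceeded 30, the intensity below which a probe is called at background here. Levels are given as quantile normalized intensities, which set no gene's level against another's, and means are followed by the SD over 3 arrays. Across probes, Pearson's r of log2 intensities was 0.992 between arrays of deleted cells, 0.990 to 0.991 between arrays of mast cells and 0.951 to 0.952 between both groups. For comparison, r was 0.924 to 0.927 between treated wild type basophils and mast cells and 0.915 to 0.920 between fresh basophils and mast cells. Without the drug, r against mast cells was 0.9385 to 0.9406 for floxed and 0.928 to 0.9295 for wild type cells. These coefficients are descriptions across probes, which are not independent replicates.

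The Cebpa probe read 69.1, 69.4 and 57.8 in deleted cells, against 2973, 2822 and 2539 in treated wild type basophils, a log2 fold change of -5.10 (95% interval -5.33 to -4.87). In mast cells it read 56.8, 63.8 and 45.7. Deleted cells and mast cells overlapped, and their difference did not pass the test (0.19, interval -0.04 to 0.42, adjusted p = 0.19); without normalization between arrays it did (0.35, adjusted p = 0.0326). Without the drug, floxed cells averaged 983 in intensity and wild type cells 2369.5. No source used here places the probe relative to the deleted sequence. The labelled mast cells carried their defining markers: Kit averaged 16618 ± 375, Tpsb2 23255 ± 2051, Cma1 27943 ± 1144 and Mitf 4985 ± 445. They also read 9411 ± 413 for Mcpt8 and 1525 ± 97.5 for Prss34, both basophil proteases; the part of basophils among these cells was not tested.

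**Figure D1:**
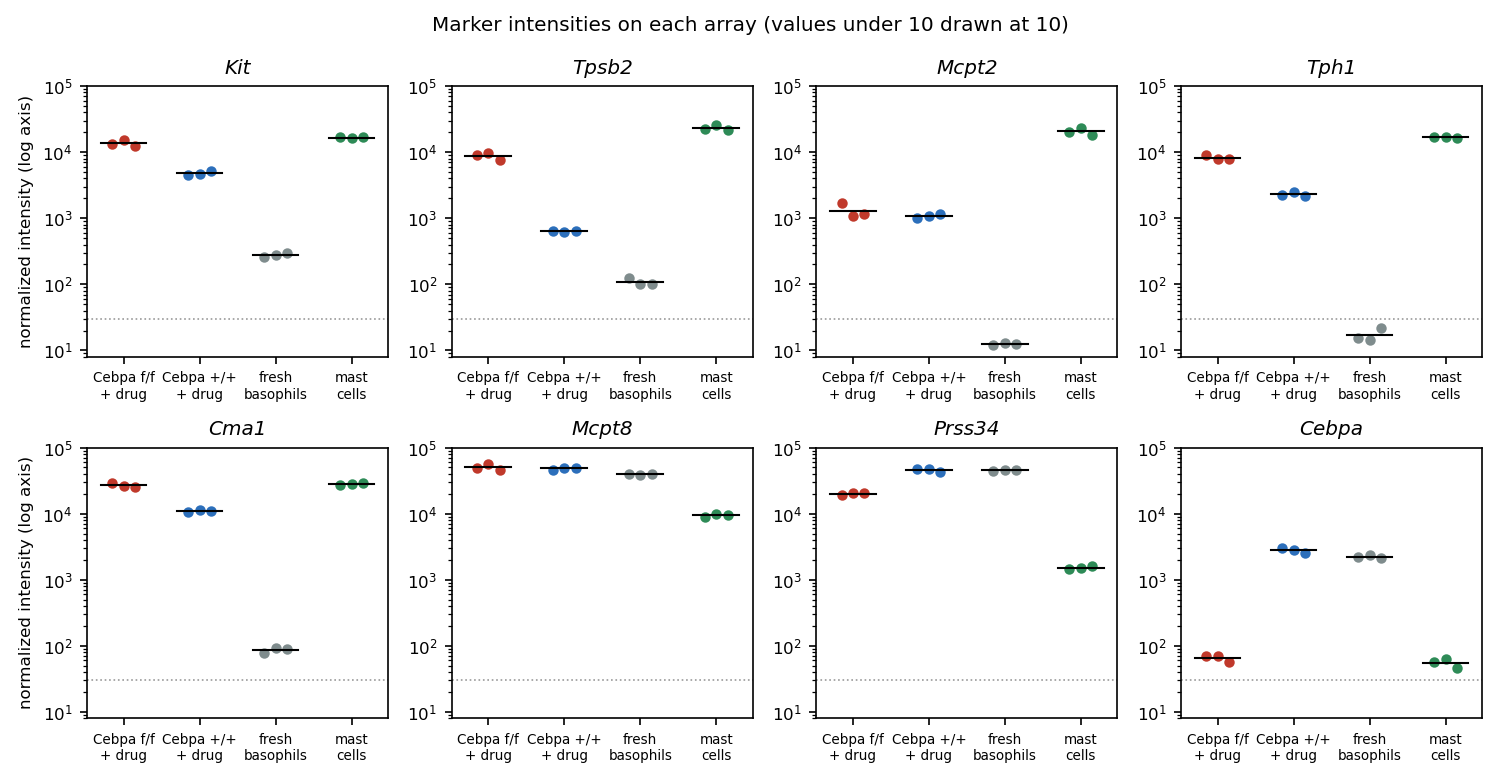
Normalized intensity on a log axis for 8 marker genes, with a point per array and a bar at the group mean, in Cebpa f/f basophils with the drug, Cebpa +/+ basophils with the drug, fresh basophils and mast cells; the dotted line is the background limit of 30. Deleted cells lie beside mast cells for Cma1 and Cebpa, between wild type and mast cells for Kit, Tpsb2 and Tph1, and beside wild type cells for Mcpt2 and Mcpt8.

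Of the 26423 probes, 4158 were higher (15.7%) and 5185 were lower (19.6%) in deleted cells than in mast cells at an adjusted p under 0.05, together 35.4%. This is the test meant below by passed. At 2-fold or more, 1365 were higher (5.17%) and 842 lower (3.19%). Without normalization between arrays, 5436 were higher and 2873 lower, so higher calls made up 65.4% of calls instead of 44.5%; the median of all probes was 0.05 there and -0.05 with normalization, on the log2 scale. Against treated wild type basophils, 4190 probes were higher in deleted cells (15.9%) and 3926 lower (14.9%), with 727 (2.75%) and 700 (2.65%) at 2-fold or more. Both comparisons share the arrays of the deleted cells, so their values are set side by side below and are not independent. Differences to the treated wild type are between genotypes, and can include differences that were there without the drug. Over the 19084 genes, 3414 were higher and 4242 lower than in mast cells, 11428 did not pass, and the median log2 fold change was -0.05.

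**Figure D2:**
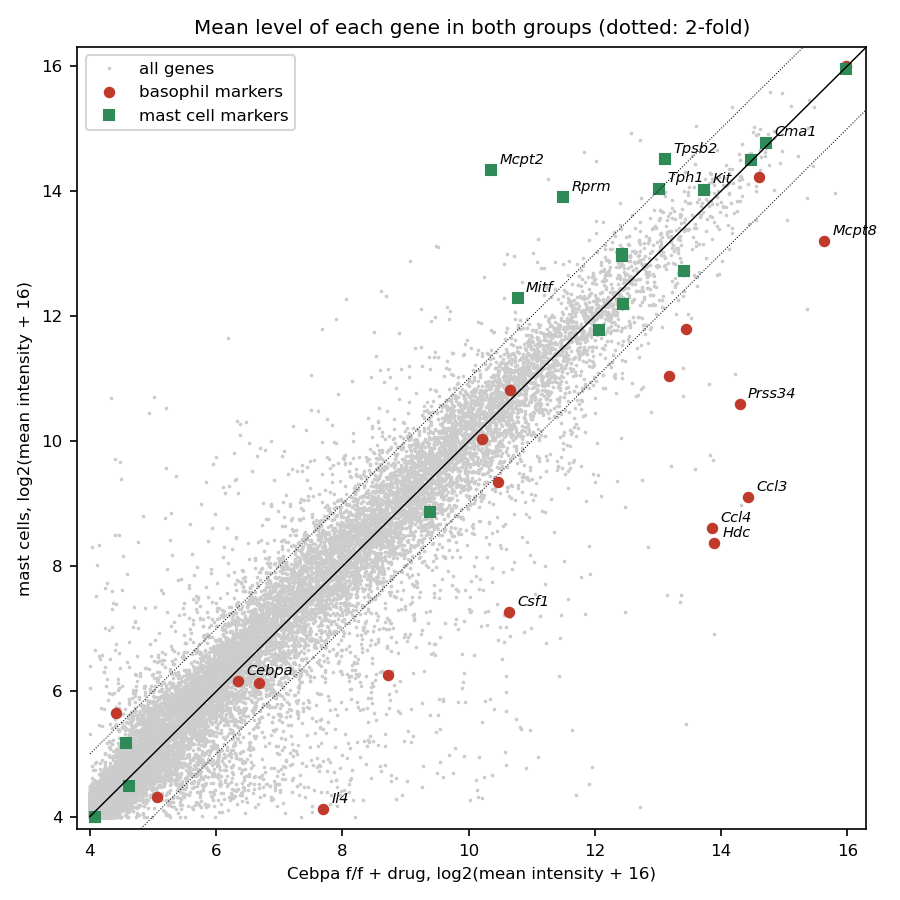
Mean level of each gene, as log2 of the mean normalized intensity plus 16, in Cebpa-deleted basophils (x axis) against mast cells (y axis), with basophil markers as circles and mast cell markers as squares; the line marks equality and dotted lines a 2-fold difference. Mcpt2, Rprm, Mitf, Tpsb2 and Tph1 lie on the mast cell side beyond 2-fold, and among others Hdc, Ccl3, Ccl4, Prss34, Il4, Csf1 and Mcpt8 on the side of the deleted cells.

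Mast cell markers did not stand together in the deleted cells. Of 23 listed markers 18 had a probe, and 8 of these were lower than in mast cells, 5 of them 2-fold or more, while 3 were higher and 7 did not pass. For 12 of the 18 the 95% interval lay within 2-fold of mast cells, against 15626 of all 19084 genes. The median was -0.18. Against treated wild type basophils, 11 of the 18 were higher and 1 lower. The deleted cells were thus above the wild type for most of these markers. Tpsab1, Mrgprb1 and Mrgprb2 read at background on the arrays of deleted cells. In mast cells Mrgprb2 exceeded background on 1 of 3 arrays, at 41.2.

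The granule proteases of mast cells, which lie in a tryptase and a chymase gene cluster, covered the whole range. Mcpt2, a chymase family protease typical of mucosal mast cells, read 1684, 1071 and 1140 in deleted cells, against 20392, 22961 and 18402 in mast cells. No array overlapped, and the log2 fold change was -3.99 (interval -4.36 to -3.63, adjusted p = 7.48e-12). In treated wild type basophils Mcpt2 read 995, 1085 and 1158, which overlapped with the deleted cells, and the difference did not pass (0.24, interval -0.13 to 0.60).

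Cma1, the mast cell chymase, gave the opposite picture. It read 28743, 26207 and 25537 in deleted cells, against 26925, 27722 and 29182 in mast cells. Both groups overlapped, with a log2 fold change of -0.06 (interval -0.23 to 0.11, adjusted p = 0.626). Treated wild type basophils read 10566, 11508 and 11141, so Cma1 was higher by 1.27 (interval 1.10 to 1.44, adjusted p = 2.38e-09) in deleted cells. Wild type basophils in culture already stood far above fresh basophils, whose 3 arrays averaged 86.4.

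Of these proteases, the tryptases Tpsb2 and Tpsg1 stood farthest above the wild type. Tpsb2, a secreted tryptase of connective tissue mast cells, read 9071, 9722 and 7723 in deleted cells, against 642, 623 and 635 in treated wild type basophils and 22667, 25537 and 21563 in mast cells. Every array of deleted cells lay above every wild type array and below every mast cell array. It was higher than in the wild type by 3.76 (interval 3.52 to 4.01) and lower than in mast cells by a log2 fold change of -1.40 (interval -1.65 to -1.15, adjusted p = 4.64e-08). Tpsg1, a membrane-anchored tryptase, averaged 5483 ± 509 in deleted cells, 378 ± 32.8 in treated wild type basophils and 7972 ± 679 in mast cells. Its distance to mast cells was smaller (-0.54, interval -0.81 to -0.26, adjusted p = 0.00327). Cpa3, the mast cell carboxypeptidase, averaged 64323 ± 1657 in deleted cells and 63346 ± 1619 in mast cells, but its probe was near the scanner's ceiling in these groups, so a difference could not be read.

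Basophil proteases did not move together either. Mcpt8, the basophil protease after which the cell type is often marked, read 49573, 56723 and 45456 in deleted cells, against 9007, 9833 and 9392 in mast cells, a log2 fold change of 2.42 (interval 2.22 to 2.62, adjusted p = 2.17e-12) with no overlap. In treated wild type basophils it read 45456, 49573 and 49573, and deleted cells overlapped with these (0.06, interval -0.14 to 0.27). Prss34, a tryptase-like protease of basophils, read 18905, 20786 and 20392 in deleted cells, against 47688, 47688 and 43008 in treated wild type basophils and 1454, 1486 and 1636 in mast cells. It was lower by 1.20 on the log2 scale than in the wild type (interval -1.37 to -1.04), yet 3.70 above mast cells (interval 3.54 to 3.87, adjusted p = 1.05e-15). Ctsg and Gzmb, granule proteases shared with neutrophils and cytotoxic cells, lay above both other groups. Ctsg averaged 15703 ± 1651 in deleted cells, 7965 ± 677 in treated wild type basophils and 6435 ± 745 in mast cells, and Gzmb averaged 37981 ± 1657, 22478 ± 989 and 24074 ± 996 in the same groups.

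The promoters of 4 genes are shown, 1 for each outcome: Cma1, which overlapped with mast cells; Mcpt8, which overlapped with wild type basophils; Prss34, which lay between both; and Rgs13, a mast cell regulator of G protein signalling that stayed at background. Each is the 250 bases before the RefSeq start on GRCm38.p6, 5′ to 3′ on the gene's strand, with 1 start per gene. They lie at chr14:55944676-55944925 (minus strand), chr14:56085198-56085447 (minus), chr17:25298144-25298393 (plus) and chr1:144177373-144177622 (minus) in that order. Capitals mark GATAA, the core of GATA factor motifs, and CATGTG or CACGTG, an E-box that Mitf binds, on either strand; the C/EBP pattern TTGCNNAA was searched too. No marked motifs overlapped.
Cma1: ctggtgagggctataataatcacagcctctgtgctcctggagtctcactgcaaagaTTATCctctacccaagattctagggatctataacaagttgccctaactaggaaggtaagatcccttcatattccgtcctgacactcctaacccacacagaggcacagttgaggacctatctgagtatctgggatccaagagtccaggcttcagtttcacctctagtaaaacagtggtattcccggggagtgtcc
Mcpt8: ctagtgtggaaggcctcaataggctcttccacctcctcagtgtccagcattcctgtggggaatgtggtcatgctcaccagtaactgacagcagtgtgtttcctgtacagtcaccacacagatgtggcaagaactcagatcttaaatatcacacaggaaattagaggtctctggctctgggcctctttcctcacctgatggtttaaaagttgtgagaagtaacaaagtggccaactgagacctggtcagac
Prss34: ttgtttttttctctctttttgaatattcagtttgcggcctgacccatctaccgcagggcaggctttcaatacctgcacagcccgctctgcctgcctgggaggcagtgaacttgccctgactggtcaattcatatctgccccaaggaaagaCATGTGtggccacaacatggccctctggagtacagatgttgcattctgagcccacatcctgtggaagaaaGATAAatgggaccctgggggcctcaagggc
Rgs13: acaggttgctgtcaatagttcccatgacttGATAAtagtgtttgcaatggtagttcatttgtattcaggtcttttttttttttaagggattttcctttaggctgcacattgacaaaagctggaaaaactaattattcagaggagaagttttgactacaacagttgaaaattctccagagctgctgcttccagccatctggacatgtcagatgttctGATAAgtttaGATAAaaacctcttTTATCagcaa
Cma1 had 1 GATA match, 194 bases before the start. Mcpt8 had no match of any kind. Prss34 had an E-box 100 bases and a GATA match 30 bases before the start. Rgs13 had 4 GATA matches, 3 of them within 34 bases of the start. None of the 4 windows held the C/EBP pattern. Of all 32817 promoters of this length, 22.6% held the GATA pattern, 17.6% an E-box and 9.57% the C/EBP pattern. These matches are descriptions of the letters in a window, not sites.

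Kit and Mitf, the receptor and the transcription factor on which mast cells depend, ended at different distances. Kit read 13334, 15106 and 12227 in deleted cells, against 16726, 16201 and 16928 in mast cells. The groups did not overlap, but the difference was small (-0.30, interval -0.50 to -0.10, adjusted p = 0.0211). It no longer passed when any of 4 arrays was left out, replicates 1 and 3 of both groups, with adjusted p between 0.0528 and 0.107, nor with only the 6 arrays compared (0.0741) or without normalization (0.136). Against treated wild type basophils, at 4747 ± 421, Kit was higher by 1.51 (interval 1.31 to 1.71, adjusted p = 2.64e-09). In wild type cells Kit was 1.09 higher with the drug than without it (adjusted p = 8.69e-07 in the same fit). Without the drug it averaged 2225 in wild type and 1515 in floxed cells.

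Mitf read 1804, 1785 and 1620 in deleted cells, against 5499, 4709 and 4748 in mast cells, a log2 fold change of -1.51 (interval -1.68 to -1.34, adjusted p = 1.33e-10). It averaged 429 ± 26.8 in treated wild type basophils, under every array of the deleted cells, and the difference was 1.98 (interval 1.80 to 2.15). Gata2 and Gata1, GATA factors shared by both lineages, were higher in deleted cells than in mast cells. Gata2 averaged 10915 ± 1435 in deleted cells and 6750 ± 741 in mast cells (0.69, interval 0.47 to 0.91). Gata1 averaged 655 ± 96.8 in deleted cells and 451 ± 31.7 in mast cells (0.51, interval 0.29 to 0.74).

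Other mast cell markers spread over a similar range. Rprm, known as a target of p53, read 3383, 2697 and 2536 in deleted cells, against 180, 185 and 184 in treated wild type basophils and 14662, 15467 and 15768 in mast cells. It was 3.85 above the wild type (interval 3.64 to 4.06) and at -2.42 against mast cells (interval -2.63 to -2.21), the farthest of the markers after Mcpt2. Tph1, the rate-limiting enzyme of serotonin synthesis outside the brain, read 8941, 7983 and 7908 in deleted cells and 17109, 16772 and 16471 in mast cells (-1.02, interval -1.22 to -0.82, adjusted p = 1.4e-07). It averaged 2296 ± 193 in treated wild type basophils. Hs6st2, a heparan sulfate sulfotransferase, averaged 4267 ± 241 in deleted cells, 626 ± 14.9 in treated wild type basophils and 3483 ± 209 in mast cells, above mast cells by 0.29 (adjusted p = 0.0139). With median scaling its difference to mast cells was 0.10 and did not pass, nor did it when arrays were scaled on their brighter probes, those above background (0.19, adjusted p = 0.109), with only the arrays compared (0.31, adjusted p = 0.0539) or without replicate 2 of the deleted cells (0.24, adjusted p = 0.068). Fcer1a, the IgE-binding chain of the receptor, averaged 22649 ± 1270 in deleted cells, 11289 ± 575 in treated wild type basophils and 22979 ± 1075 in mast cells, with an interval against mast cells of -0.22 to 0.17. Ndst2, which sulfates heparin, averaged 5526 ± 468 in deleted cells, 2866 ± 246 in treated wild type basophils and 8116 ± 439 in mast cells. Slc18a2, which loads amines into granules, averaged 5569 ± 202 in deleted cells and 4645 ± 663 in mast cells and did not pass.

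**Figure D3:**
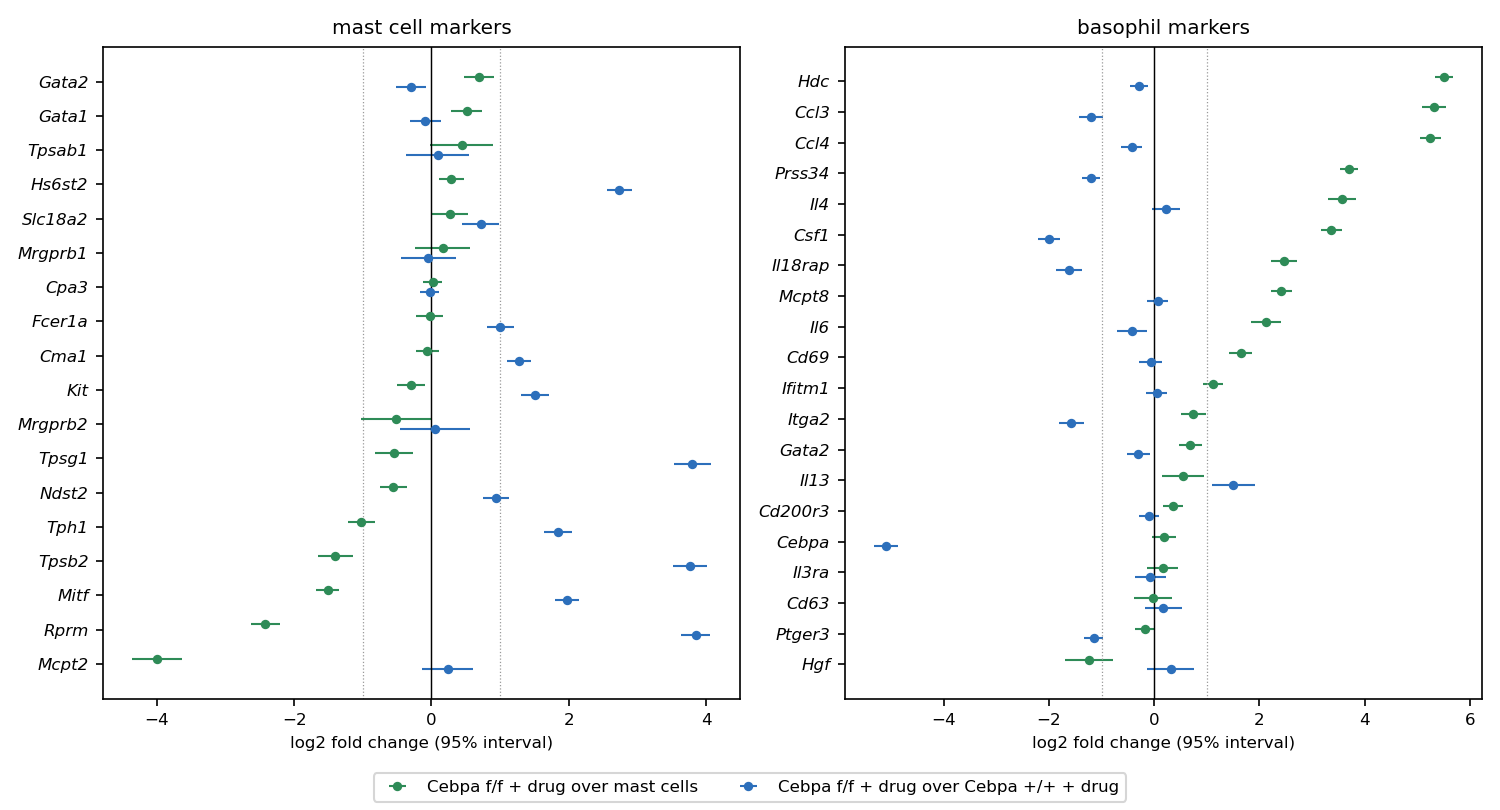
Log2 fold changes with 95% intervals of mast cell markers (left) and basophil markers (right) in Cebpa-deleted basophils over mast cells and over treated wild type basophils, ordered by the fold over mast cells. Most mast cell markers lie right of 0 against the wild type, while against mast cells they run from -3.99 for Mcpt2 to 0.69 for Gata2; most basophil markers lie right of 0 against mast cells.

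Basophil genes stayed high. Of 21 listed markers 20 had a probe; 15 were higher than in mast cells, 11 of them 2-fold or more, and 1 was lower, with a median of 1.38. Itga2, among the 15, was at background in both groups. Against treated wild type basophils 11 were lower and 1 higher, at a median of -0.30. Cebpa, the deleted gene itself, is among the 11. Gata2 belongs to both marker lists.

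Hdc, which makes histamine from histidine, read 15992, 14481 and 14787 in deleted cells, against 308, 322 and 314 in mast cells, a log2 fold change of 5.51 (interval 5.34 to 5.68, adjusted p = 1.46e-17). Treated wild type basophils averaged 18479 ± 1608, and the deleted cells were lower by a log2 fold change of -0.29 (interval -0.46 to -0.12, adjusted p = 0.00917). That small difference was lost under median scaling, at an adjusted p of 0.0676, with only the arrays compared (0.078) and without normalization (0.105). The Hdc arrays of deleted cells all lay below those of wild type cells and far above those of mast cells. Ccl3, a chemokine of activated basophils, read 22171, 20161 and 23528 in deleted cells, against 49573, 45456 and 56723 in treated wild type basophils and 538, 459 and 610 in mast cells. It was lower than in the wild type by 1.20 (interval -1.43 to -0.97) and 5.32 above mast cells (interval 5.09 to 5.55, adjusted p = 8.12e-16). Without the drug Ccl3 averaged 27749 in floxed and 42706 in wild type cells. Ccl4, a related chemokine, averaged 14859 ± 1218 in deleted cells, 20023 ± 2309 in treated wild type basophils and 374 ± 28.6 in mast cells.

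Il4, the signature cytokine of basophils, read 195, 216 and 163 in deleted cells and was at background on all arrays of mast cells, so it was at least 6.33-fold higher. Treated wild type basophils read 171, 155 and 155, and the difference did not pass (0.22, interval -0.04 to 0.49). Il6 averaged 9229 ± 1324 in deleted cells, 12298 ± 1343 in treated wild type basophils and 2088 ± 148 in mast cells. Csf1, the growth factor of macrophages, averaged 1582 ± 146 in deleted cells, 6357 ± 161 in treated wild type basophils and 138 ± 12.1 in mast cells. Il18rap, a subunit of the interleukin-18 receptor, averaged 405 ± 31.7, 1267 ± 29.8 and 61.0 ± 13.2 in the same groups. Csf1 was lower by 2.00 and Il18rap by 1.61 on the log2 scale than in the wild type, the farthest of the markers after Cebpa. Cd69 and Ifitm1, an activation marker and an interferon-induced membrane protein, were 1.64 and 1.12 above mast cells, with intervals against the wild type of -0.29 to 0.15 and -0.15 to 0.24. Cd200r3, an activating receptor of basophils and mast cells, was 0.36 above mast cells (adjusted p = 0.00337), but 0.17 with median scaling, where it did not pass. Itga2 averaged 17.4 ± 0.882 in deleted cells, against 83.6 ± 2.84 in treated wild type basophils. Hgf, the single marker that was lower, was at background in deleted cells and read 29.7, 37.2 and 36.3 in mast cells. Il13, a type 2 cytokine, read 85.4, 80.3 and 92.3 in deleted cells and 42.3, 54.3 and 67.1 in mast cells (0.54, adjusted p = 0.0342). It no longer passed without any 1 of the deleted arrays or without mast cell replicate 1 or 2, with adjusted p between 0.0535 and 0.147. Ptger3, a prostaglandin receptor, averaged 1592 ± 149 in deleted cells, 3545 ± 86.3 in treated wild type basophils and 1799 ± 191 in mast cells. It was 1.15 below the wild type and did not pass against mast cells, though it did without mast cell replicate 3 (adjusted p = 0.0361). Il3ra, the interleukin-3 receptor chain, did not pass either, and Cd63, a granule membrane protein, was near the ceiling.

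Across all genes, the 15 highest and the 15 lowest log2 fold changes against mast cells were taken among genes that passed and whose arrays did not overlap. Of the 178 genes named by rule, many were chosen for lack of overlap or for the size of their change. That 167 had arrays of deleted cells without overlap with mast cells is therefore no result about them. The exceptions were Cebpa, Cma1, Fcer1a, Cpa3, Cd63, B2m, Ptger3, Il3ra, Tpsab1, Mrgprb1 and Mrgprb2. Of the 15 highest, 9 were at background in mast cells, and of the 15 lowest 9 were at background in deleted cells. Of the same 15 lowest, 10 were also at background in treated wild type basophils. Of the 15 highest, 5 were above and 7 below treated wild type basophils.

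Several of the lowest are receptors and signalling proteins. Il4ra, the interleukin-4 receptor chain, read 180, 197 and 187 in deleted cells, against 3446, 3432 and 3724 in mast cells, a log2 fold change of -4.12 (interval -4.31 to -3.93, adjusted p = 1.4e-15). It averaged 106 ± 1.07 in treated wild type basophils, and deleted cells were 0.74 above them (interval 0.55 to 0.94). Gpr176, an orphan G protein-coupled receptor, averaged 251 ± 11.2 in deleted cells, 114 ± 4.75 in treated wild type basophils and 4944 ± 221 in mast cells. Pgr, the progesterone receptor, was at background on all arrays of deleted cells, at 16.2 ± 1.33, against 1659 ± 51 in mast cells, and was thus at least 55.3-fold lower. Its level under the drug in wild type cells, 14.6 ± 12.6, was below the 127 of the untreated wild type (-2.31, adjusted p = 1.83e-06). A4galt, a glycolipid synthase, likewise averaged 223 ± 4.75 in deleted cells and 3946 ± 313 in mast cells, and treated wild type cells were at -2.24 on the log2 scale against untreated ones. These were the 2 of the 15 lowest genes that passed the drug test in wild type cells, against 8 of the 15 highest and 75 of all 178 named genes. In that test 11.2% of all probes were higher and 10.1% lower, together 21.3%, with 0.515% and 0.7% at 2-fold or more.

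The 8 mast cell genes called not reached were 2-fold or more below mast cells with an interval against treated wild type basophils within 2-fold both ways. They were Pgr, Fam155a, Hic1, Tspan8, Ccdc92b, Plcb1, Rgs9 and Rgs13. Hic1 is a transcriptional repressor, Tspan8 a tetraspanin, Plcb1 a phospholipase C, and Rgs9 and Rgs13 regulate G protein signalling. Of the 8, 6 were at background in deleted cells and 7 in treated wild type basophils. Where both groups are at background the interval tends to lie within 2-fold. Because the rule chose these genes, their closeness to the wild type is a description. Fam155a read 14.7, 13.8 and 15.7 in deleted cells, against 1369, 1309 and 1458 in mast cells, so it was at least 45.9-fold lower. Tspan8 averaged 5.0 ± 1.98 in deleted cells and 828 ± 90.1 in mast cells, at least 27.5-fold lower. Rgs13 averaged 0.30 ± 3.15 in deleted cells and 301 ± 30.9 in mast cells, at least 9.99-fold lower. Plcb1, at least 21.9-fold lower, was the 1 of the 8 that also passed against the wild type, both at background.

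Genes part way up passed both tests, below mast cells and above treated wild type basophils. The 8 whose smaller difference was largest were Enc1, Pigz, Rprm, Txk, Lpar1, 1700097N02Rik, Mzf1 and Prelid2. Txk, a kinase of the Tec family, read 2363, 2347 and 1824 in deleted cells, against 272, 247 and 274 in treated wild type basophils and 9140, 10041 and 9473 in mast cells. It was 2.96 above the wild type (interval 2.73 to 3.19) and at -2.13 against mast cells (interval -2.37 to -1.90), and no arrays of the 3 groups overlapped. Lpar1, a receptor for lysophosphatidic acid, averaged 447 ± 7.66 in deleted cells, 79.9 ± 3.81 in treated wild type basophils and 1832 ± 146 in mast cells. Pigz, a mannosyltransferase of membrane anchors, averaged 336 ± 40.7 in deleted cells, 62.4 ± 9.53 in treated wild type basophils and 2060 ± 162 in mast cells. Mzf1, a zinc finger protein, averaged 403 ± 36.6, 84.5 ± 2.34 and 1412 ± 157 in the same groups. Because the rule chose them for both differences, these values are a description.

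Genes part way down were chosen the other way round, above mast cells and below treated wild type basophils, and are likewise a description. They were Id1, S100a9, Slc6a4, Vsir, Hcar2, Padi4, Cxcr2 and Nt5e. Id1, an inhibitor of helix-loop-helix factors, read 686, 733 and 775 in deleted cells, against 11508, 9501 and 8636 in treated wild type basophils and 97.1, 99.4 and 106 in mast cells. Cxcr2, a chemokine receptor of neutrophils, averaged 232 ± 7.42 in deleted cells and 4185 ± 70.8 in treated wild type basophils, and was at background in mast cells. Nt5e, the ectoenzyme that makes adenosine, averaged 486 ± 26.3 in deleted cells and 7585 ± 308 in treated wild type basophils, and was also at background in mast cells. S100a9, a calcium-binding protein of neutrophils, averaged 956 ± 98 in deleted cells, 6377 ± 98 in treated wild type basophils and 124 ± 10.2 in mast cells. Slc6a4, the serotonin transporter, averaged 539 ± 27.9, 3936 ± 802 and 62.7 ± 10.9 in the same groups. Without the drug Id1 averaged 4306 in floxed and 8722 in wild type cells. S100a9 averaged 2750 and 7042 in these untreated cells.

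**Figure D4:**
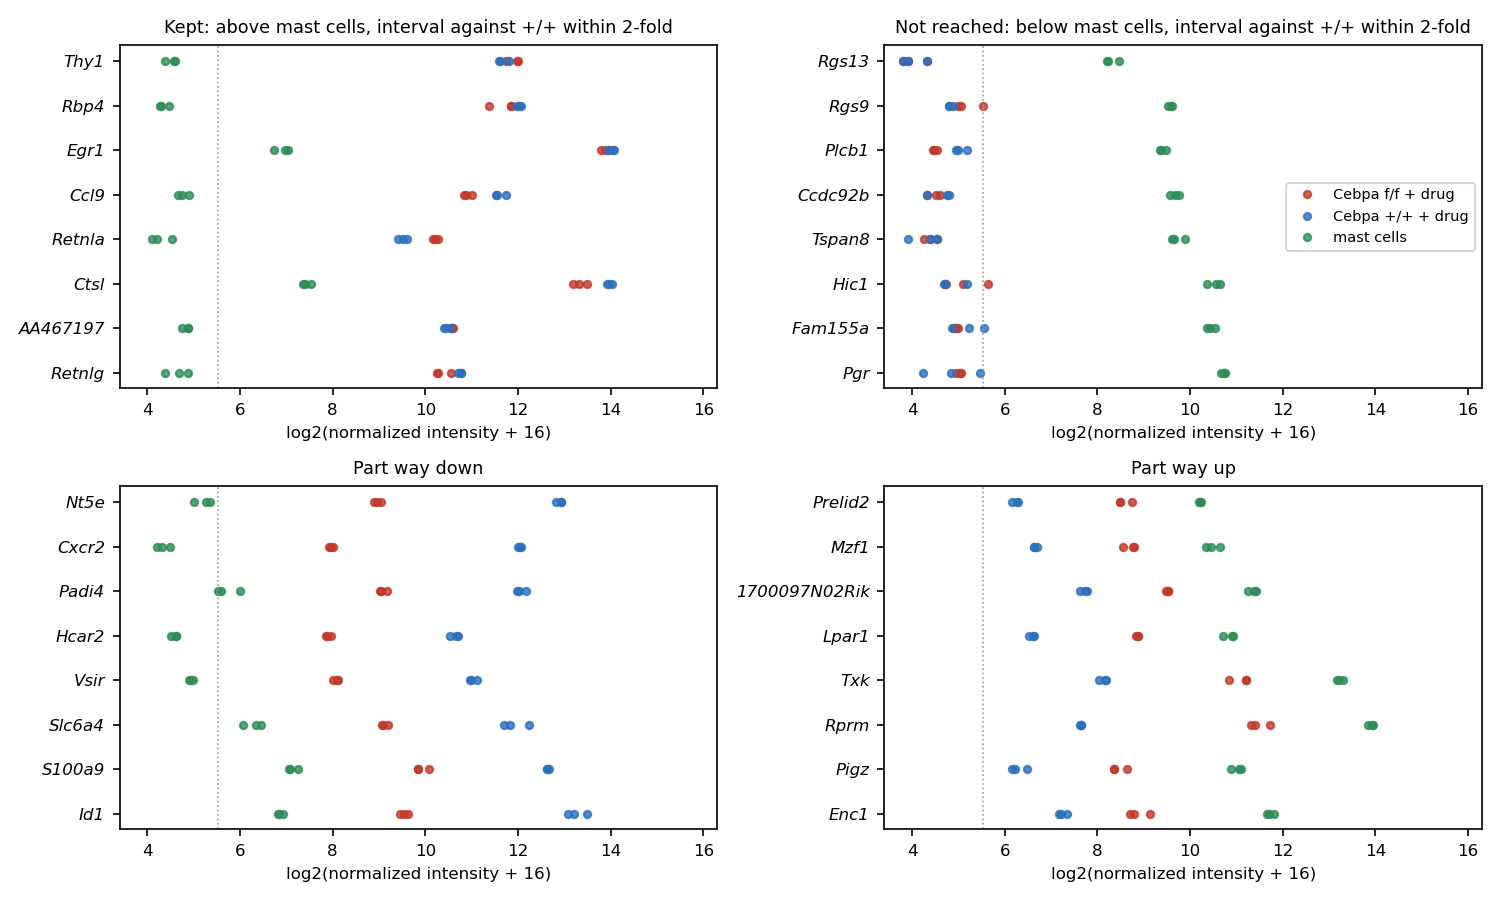
Log2 of normalized intensity plus 16 on each array for the 8 genes of each class, in Cebpa-deleted basophils, treated wild type basophils and mast cells; the dotted line is the background limit. In the upper panels deleted cells lie near the wild type points, though apart from them for genes such as Ctsl, Retnlg and Ccl9, and in the lower panels between the wild type and the mast cell points, as the rules that chose the genes require.

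The 8 kept genes were 2-fold or more above mast cells with an interval against treated wild type basophils within 2-fold. They were Thy1, Rbp4, Egr1, Ccl9, Retnla, Ctsl, AA467197 and Retnlg, and 6 of them were at background in mast cells. Kept does not mean unchanged: 4 of the 8, Rbp4, Ccl9, Ctsl and Retnlg, were below treated wild type basophils past the test. Above them past the test was 1, Retnla. Of the 16 alternatives, Rbp4 no longer passed against the wild type in 8 and Retnlg in 6. Ctsl had a log2 fold change of -0.64 and Ccl9 of -0.69 against the wild type. Thy1, a surface glycoprotein, read 4001, 4075 and 3430 in deleted cells, 3574, 3061 and 3102 in treated wild type basophils and 8.17, 7.72 and 4.78 in mast cells, so it was at least 127.5-fold higher. Egr1, an immediate early transcription factor, read 14178, 15860 and 15106 in deleted cells, against 110, 91.1 and 116 in mast cells, a log2 fold change of 6.96 (interval 6.74 to 7.17). It averaged 16575 ± 773 in treated wild type basophils. Rbp4, a retinol carrier, averaged 3328 ± 606 in deleted cells, 4150 ± 104 in treated wild type basophils and 4.31 ± 1.47 in mast cells, at least 109.6-fold higher than in mast cells. Over the alternatives its log2 fold change against mast cells ran from 3.30 to 7.51. In fresh basophils Rbp4 averaged 6.04. Retnla, a resistin-like secreted protein, averaged 1168 ± 44.3 in deleted cells and 27.0 in fresh basophils. Of the 8 genes, 5 passed the drug test in wild type cells, with Retnlg at -2.85. Retnlg averaged 1304 ± 163 in deleted cells and 1705 ± 50.8 in treated wild type basophils. It averaged 12431 in untreated wild type and 12657 in fresh basophils. Kept is thus relative to treated wild type cells, not to fresh basophils.

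Arg1 and Plvap were among the 15 highest genes, most of which have only a lower bound for their fold. Arg1, which breaks down arginine, read 11508, 11141 and 10712 in deleted cells, against 20978, 21976 and 20978 in treated wild type basophils and 14.6, 35.3 and 35.3 in mast cells, with a log2 fold change against mast cells of 8.01 (interval 7.71 to 8.31, adjusted p = 1.21e-16). Fresh basophils averaged 9.80. Plvap, a protein of the diaphragms of fenestrated blood vessels, read 6498, 6280 and 7410 in deleted cells and was at background in treated wild type basophils and in mast cells, so deleted cells were at least 223.7-fold above either. Floxed cells without the drug averaged 7903, and of the untreated wild type arrays 1 read 5901 and the others were at background. Plvap was thus high on some and at background on other arrays of untreated wild type cells.

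Several genes stood above both mast cells and treated wild type basophils in deleted cells, so their levels did not lie between both. Cnga1, a cyclic nucleotide-gated channel, read 3913, 4005 and 3910 in deleted cells, against 604, 668 and 570 in treated wild type basophils and was at background in mast cells, so it was at least 131.4-fold above mast cells. It was 2.65 above the wild type (interval 2.42 to 2.89, adjusted p = 1.6e-11). Prg2, the major basic protein of eosinophil granules, read 10458, 10532 and 10676 in deleted cells, against 3234, 3008 and 3053 in treated wild type basophils and 153, 161 and 199 in mast cells. Fresh basophils read higher still, at 38230. Without the drug Prg2 averaged 7640 in floxed and 3890 in wild type cells. Hoxa7, a homeobox factor, averaged 1021 ± 170 in deleted cells, 359 ± 11.8 in treated wild type basophils and 3.20 ± 0.504 in mast cells. Itgb3, the integrin beta 3 chain, averaged 7320 ± 490 in deleted cells, 3872 ± 591 in treated wild type basophils and 301 ± 64.6 in mast cells. Ddc, which converts the product of Tph1 to serotonin, averaged 946 ± 8.13 in deleted cells, 148 ± 4.89 in treated wild type basophils and 415 ± 38.3 in mast cells.

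Markers of other cells moved with the comparison. The counts of every list stand against 15.7% of all probes higher and 19.6% lower, and against 3414 higher and 4242 lower of 19084 genes. Counts not far from these shares, as for the exocytosis and G protein-coupled receptor lists, are no result about those lists. Of 15 measured monocyte and macrophage markers 14 were higher in deleted cells than in mast cells and 0 were lower, with a median of 2.71. Their summed intensity was 12146 to 12375 on the arrays of deleted cells, 18731 to 19715 in treated wild type basophils, 50789 to 51372 in fresh basophils and 2752 to 3007 in mast cells; 6 of the 15 were at background in mast cells and 1 in deleted cells. C1qa averaged 342 ± 13.6 in deleted cells, 1065 ± 59.1 in treated wild type basophils and was at background in mast cells. Mrc1, the mannose receptor, averaged 847 ± 107 in deleted cells and 2594 ± 229 in treated wild type basophils, again at background in mast cells. Arg1, Retnla, Ccl12, Fabp4 and Ctsl, named here as far above mast cells, are known in macrophages too. The part of such cells in these results was not tested.

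Of 7 megakaryocyte and platelet markers 5 were higher and 1 lower; Pf4 read 9520, 9909 and 7632 in deleted cells and 206, 148 and 154 in mast cells (5.61, interval 5.33 to 5.90), with 12341 ± 565 in treated wild type basophils. The list summed to 8896 to 11284 in deleted cells and 1305 to 1436 in mast cells. Neutrophil markers were higher in 10 of 17 and lower in 1, eosinophil markers higher in 4 of 7 and lower in 1, and their sums were 18487 to 21177 and 10894 to 11207 in deleted cells. Mast cells summed to 6596 to 7928 for the neutrophil list and 632 to 727 for the eosinophil list. In deleted cells the eosinophil sum was mostly 1 gene, Prg2, at 10555, and the megakaryocyte sum mostly Pf4, at 9021. Of 13 T and NK cell markers 1 was higher, Nkg7, at 447 ± 33.6 in deleted cells and at background in mast cells, and 1 lower. B cell markers were higher in 3 of 9 and lower in 1, and erythroid markers higher in 1 of 5 and lower in 2, with Hbb-b1 at 199 ± 23.7 in deleted cells and 845 ± 66.6 in mast cells. The part of these cell types in the results was not tested.

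Transcription factors changed in both directions. Of 53 measured, 23 were higher and 15 lower than in mast cells, against the background of 15.7% and 19.6%, with a median of 0.19. Ets1, a factor of lymphoid and other blood cells, read 21350, 20392 and 19430 in deleted cells, against 434, 478 and 547 in mast cells (5.35, interval 5.12 to 5.58, adjusted p = 8.27e-16). Its interval against treated wild type basophils was -0.43 to 0.03. Hoxa9, a homeobox factor of progenitors, averaged 166 ± 12 in deleted cells, 129 ± 9.12 in treated wild type basophils and was at background in mast cells. Of the lower ones, Ahrr, the repressor of the aryl hydrocarbon receptor, averaged 521 ± 64.2 in deleted cells, 371 ± 15.8 in treated wild type basophils and 7539 ± 464 in mast cells (-3.82, interval -4.03 to -3.61). Mycn averaged 46.1 ± 3.15, 44.4 ± 4.76 and 777 ± 95.3 in the same groups. Chosen after their values were seen, Cebpb and Cebpe, which are relatives of Cebpa, were higher than in mast cells, Cebpb by 3.13; Cebpe was at background in mast cells and so at least 7.17-fold higher. Cebpb averaged 1155 ± 146 in deleted cells, 2025 ± 122 in treated wild type basophils and 117 ± 5.13 in mast cells. Cebpe averaged 217 ± 32.3, 132 ± 13.2 and 10.2 ± 4.09 in the same groups. Ahr, the receptor that Ahrr represses, and Gata3, also chosen afterwards, had log2 fold changes of -2.46 and -1.75 against mast cells. Tal1, a factor of erythroid and mast cells, averaged 26459 ± 2039 in deleted cells and 25091 ± 480 in mast cells and did not pass.

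Cytokines and chemokines were mostly higher in deleted cells. Of 33 measured, 24 were higher than in mast cells, 19 of them 2-fold or more, and 1 was lower, with a median of 1.52. Against treated wild type basophils 8 were higher and 14 lower. Ccl22, a chemokine that attracts T cells, read 2061, 2006 and 1357 in deleted cells, against 23.6, 30.6 and 24.2 in mast cells (5.42, interval 5.07 to 5.76), with 2241 ± 123 in treated wild type basophils. Ccl9 averaged 1903 ± 128 in deleted cells, 3088 ± 262 in treated wild type basophils and 11.3 ± 2.16 in mast cells. Ccl12 averaged 2184 ± 96.7, 7240 ± 120 and 14.9 ± 14 in the same groups. Of 23 receptors for cytokines and growth factors, 9 were higher and 5 lower. Il7r, the interleukin-7 receptor chain, averaged 512 ± 13.1 in deleted cells, 2656 ± 136 in treated wild type basophils and 25.1 ± 8.25 in mast cells. Il5ra, the interleukin-5 receptor chain, was at background in deleted cells, at 23.4 ± 4.48, against 274 ± 22.9 in mast cells, at least 9.11-fold lower.

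Of 27 chemokine and other G protein-coupled receptors 7 were higher and 9 lower. Cx3cr1, the fractalkine receptor, read 2585, 2462 and 2219 in deleted cells, against 915, 765 and 711 in treated wild type basophils and 17987, 20392 and 17700 in mast cells (-2.94, interval -3.19 to -2.69). P2ry1, a receptor for ADP, averaged 10769 ± 405 in deleted cells, 13662 ± 855 in treated wild type basophils and 2283 ± 125 in mast cells. Integrins and other adhesion genes were higher in 14 of 25 and lower in 4. Itgb2, the beta chain of leukocyte integrins, averaged 1500.3 ± 21.5 in deleted cells, 4039 ± 195 in treated wild type basophils and 133 ± 19.4 in mast cells. Cadm1, an adhesion molecule of mast cells, averaged 76.2 ± 5.9, 93.4 ± 17.1 and 985 ± 70 in the same groups (-3.44 against mast cells, interval -3.68 to -3.20), and its interval against the wild type was -0.47 to 0.00.

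The mediator pathways were split between enzymes. Of 13 histamine and serotonin genes 4 were higher and 5 lower. Beside Hdc, Ddc and Slc6a4, Maob, which degrades monoamines, averaged 354 ± 36.3 in deleted cells, 261 ± 9.82 in treated wild type basophils and 2606 ± 118 in mast cells (-2.83, interval -3.02 to -2.64). Of 12 leukotriene and prostaglandin genes 5 were higher and 2 lower. Tbxas1, the thromboxane synthase, read 8184, 8254 and 8622 in deleted cells, against 4416, 4430 and 4110 in treated wild type basophils and 21563, 22667 and 23921 in mast cells (-1.44, interval -1.62 to -1.27). Ptgs2, the inducible cyclooxygenase, averaged 103 ± 4.32 in deleted cells, 165 ± 19.5 in treated wild type basophils and was at background in mast cells.

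Genes of the IgE receptor and its proximal signalling were higher in 7 of 17 and lower in 5. Ms4a2, the beta chain of the receptor, read 4262, 4026 and 4262 in deleted cells, against 8101, 8636 and 8101 in mast cells (-0.98, interval -1.18 to -0.79, adjusted p = 2.09e-07), with 3470 ± 215 in treated wild type basophils. Fyn, a kinase of that pathway, averaged 416 ± 57.5 in deleted cells, 512 ± 34.3 in treated wild type basophils and 42.2 ± 14.8 in mast cells. Cd84, a receptor of the SLAM family, averaged 3138 ± 218, 5650 ± 70 and 1091 ± 76.4 in the same groups. Of 20 genes of the exocytosis machinery 5 were higher and 6 lower. The interval lay within 2-fold of mast cells for 15626 of all 19084 genes and for 19 of these 20. Sytl2, a Rab27 effector, was the exception, at 139 ± 10.3 in deleted cells, 53.3 ± 3.69 in treated wild type basophils and 722 ± 10.8 in mast cells. Of 16 genes of granule storage and heparin 7 were higher and 4 lower. Ctss, a cathepsin, averaged 2374 ± 276 in deleted cells, 2810 ± 413 in treated wild type basophils and 93.9 ± 8.54 in mast cells. Hs3st1, which also modifies heparan sulfate, averaged 405 ± 17.9, 387 ± 54.2 and 2260 ± 206 in the same groups (-2.43, interval -2.65 to -2.21, against mast cells).

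Cell cycle genes were lower than in mast cells in 22 of 27 and higher in 1, with a median of -0.72, and against treated wild type basophils 16 were higher and 1 lower. Their sum was 11251 to 11416 in deleted cells and 7706 to 8059 in treated wild type basophils. Without the drug it was 12788 to 13050 in floxed and 7522 to 7714 in wild type cells, so the genotypes differed without the drug too. Ccna2, a cyclin of S and G2 phase, averaged 807 ± 57.4 in deleted cells, 530 ± 64.2 in treated wild type basophils and 2273 ± 125 in mast cells. Plk1, a mitotic kinase, averaged 720 ± 110, 369 ± 20 and 1665 ± 51 in the same groups. Cholesterol synthesis genes were lower than in mast cells in 12 of 17 and higher in 1, with a median of -0.76. Cyp51 averaged 147 ± 12.6 in deleted cells, 170 ± 11.9 in treated wild type basophils and 472 ± 68.7 in mast cells. Of 12 stem and progenitor markers 4 were higher and 6 lower. Cd34, a sialomucin of progenitors and mast cells, read 6331, 6412 and 7279 in deleted cells, against 2585, 2518 and 2504 in treated wild type basophils and 26542, 28743 and 30596 in mast cells (-2.10, interval -2.28 to -1.92). Mecom, a zinc finger factor of stem cells, averaged 67.2 ± 3.71, 31.5 ± 3.08 and 1218 ± 86.9 in the same groups. Without the drug Cd34 averaged 5182 in floxed and 1898 in wild type cells.

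Lysosome genes were higher in 15 of 23 and lower in 2, and glycolysis and hypoxia genes higher in 17 of 21 and lower in 1, with medians of 0.75 and 0.74. Ctsl read 9322, 10256 and 11508 in deleted cells and 168, 148 and 154 in mast cells, with 16062 ± 632 in treated wild type basophils. Egln3, an oxygen-sensing hydroxylase, averaged 3645 ± 252 in deleted cells, 1932 ± 260 in treated wild type basophils and 135 ± 12.1 in mast cells, and Ndrg1, a hypoxia-induced gene, 6843 ± 308, 3310 ± 240 and 651 ± 14.2. Immediate early and handling genes, which also respond to the way cells are prepared, were higher in 15 of 19 and lower in 1. Their sum was 41778 to 42408 on the arrays of deleted cells, 50688 to 51390 in treated wild type basophils and 17664 to 19781 in mast cells, and the part of cell handling in Egr1, Fos and the chemokines was not tested. Fos averaged 595 ± 76.6 in deleted cells, 1926 ± 72.4 in treated wild type basophils and 6.19 ± 2.38 in mast cells. Of 7 housekeeping genes 4 were higher and 1 lower, with intervals within 2-fold for all 7 and a median of 0.24. Such an interval was found for 15626 of all 19084 genes.

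Of 19 interferon-stimulated genes 10 were higher and 5 lower than in mast cells, and against treated wild type basophils 17 were lower and 1 higher. Their sum was 14101 to 14894 in deleted cells and 48327 to 50351 in treated wild type basophils. Without the drug it was 14155 to 15180 in floxed and 50465 to 52905 in wild type cells, so the genotypes differed without the drug too. Irf7, a factor of the interferon response, averaged 1472 ± 206 in deleted cells, 9194 ± 151 in treated wild type basophils and 223 ± 16.5 in mast cells. Ifi27l2a averaged 415 ± 45.8 in deleted cells, 6362 ± 211 in treated wild type basophils and 2071 ± 137 in mast cells, so it lay below both. Antigen presentation genes were higher in 8 of 12 and lower in 0; Cd74, the invariant chain, averaged 861 ± 58.3 in deleted cells, 1594 ± 65 in treated wild type basophils and 119 ± 16.9 in mast cells. Iron handling genes were higher in 6 of 11 and lower in 0, and p53 targets were higher in 10 of 17 and lower in 3. Slc40a1, the iron exporter, averaged 322 ± 56.3 in deleted cells, 1599 ± 80.4 in treated wild type basophils and 29.5 ± 15.3 in mast cells. The BCL2 family was higher in 3 of 14 and lower in 3, with Bcl2, a survival factor, at 492 ± 26.2 in deleted cells, 261 ± 16.6 in treated wild type basophils and 797 ± 20.9 in mast cells; with its probes averaged Bcl2 did not pass (-0.21, adjusted p = 0.795). The counts of this family are near the share of all probes, 15.7% higher and 19.6% lower, and are no result about it. The tryptase list was higher in 1 of 8 and lower in 2, which is near that share too and no result about it. The chymase list was higher in 3 of 7 and lower in 2.

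**Figure D5:**
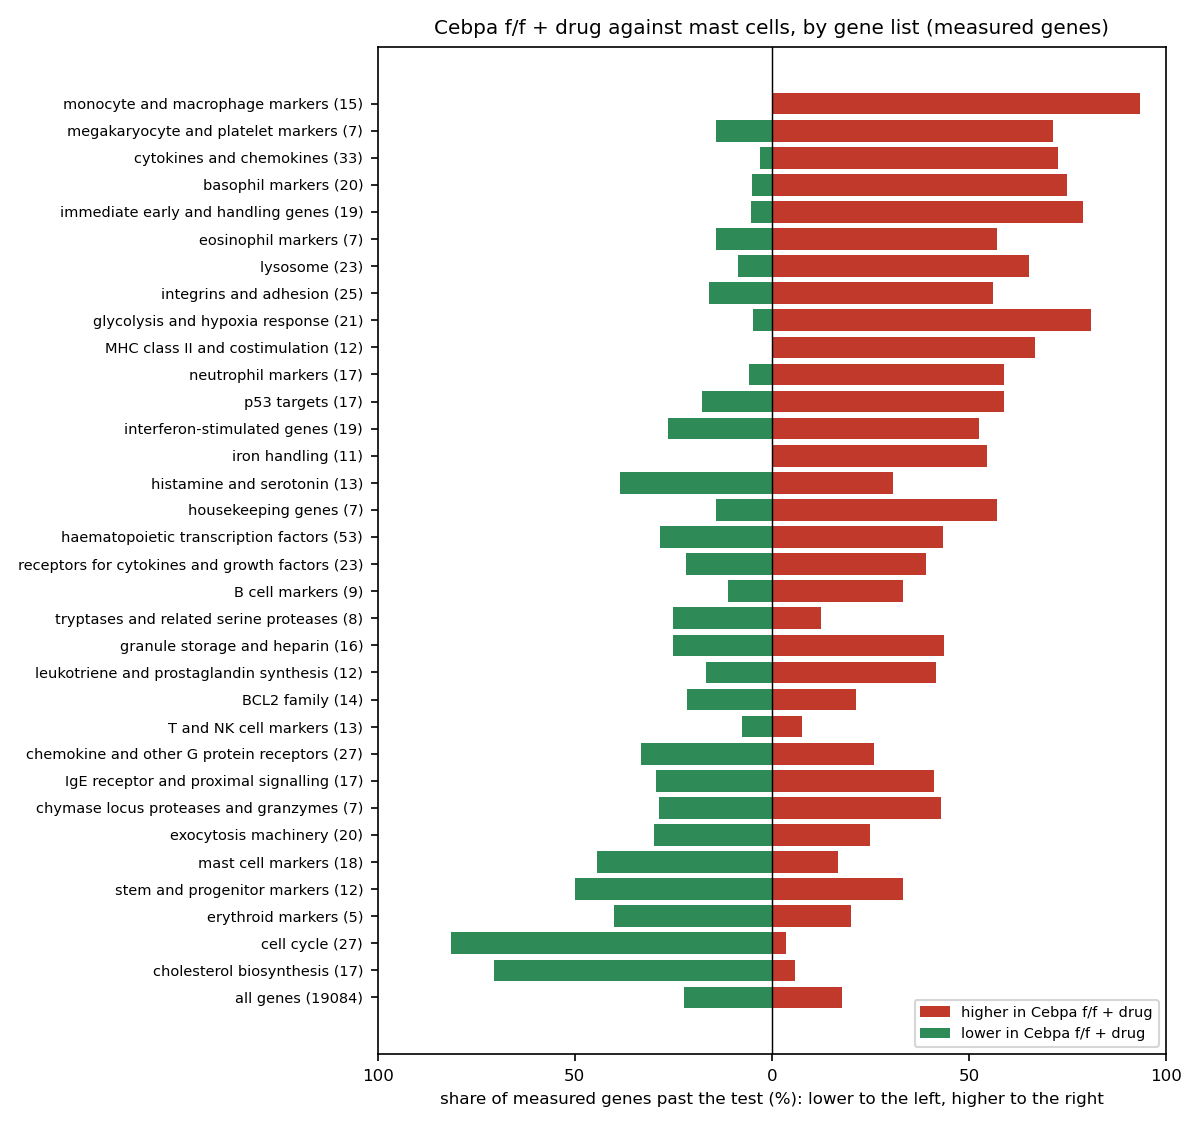
Share of measured genes in each list that were higher (right) or lower (left) in Cebpa-deleted basophils than in mast cells, with the number measured in parentheses and all 19084 genes in the lowest row; lists are ordered by their median. Macrophage markers, megakaryocyte markers and cytokines stand at the top with 14 of 15, 5 of 7 and 24 of 33 higher, and cell cycle and cholesterol synthesis genes near the bottom with 22 of 27 and 12 of 17 lower.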

How the data were processed

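RNA of 18 samples was hybridized to single-dye microarrays. The authors deposited a probe intensity per array on a linear scale, from which background had been subtracted, as values below 0 show; scanning and any earlier normalization are not described in the sources used here. Probes were named from the platform annotation, and where a gene had several probes, that with the highest mean was used. Of 178 named genes 22 had other probes, which all made the same call for 13 and passed the other way for 0.

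Intensities were quantile normalized over the 18 arrays and transformed as log2(intensity + 16), which understates the change of dim genes. All arrays entered 1 limma 3.58.1 fit in R 4.3.3 (two-sided moderated tests, lmFit then eBayes), parametrised as group means, Benjamini-Hochberg adjustment over 26423 probes, a threshold of 0.05 and 95% intervals. Scripts were tested on simulated data. A probe under 30 on all 3 arrays of a group was at background there, and its fold is a bound, with each value of that group raised to that limit. Probes above 60000 on any array were near the ceiling, and this limit was set after seeing the values. The number of arrays limits the precision.

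Named were the 15 highest and 15 lowest genes that passed without overlap of arrays; 8 genes each that were kept, not reached, part way up or part way down; up to 4 members of each of 33 lists by size; and all mast cell and basophil markers. The comparison, the members and the lists were chosen with earlier results of these data known. Lists are described by counts and medians, without a test of the list. Alternatives were other normalizations, an offset of 50, the dimmest 30% of probes left out, an intensity trend, array weights, probes averaged per gene, only the arrays compared, the replicate number as a block and each array left out.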

Additional observations from a re-analysis of the deposited data

How the results depend on the processing

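Probes higher than in mast cells numbered 3823 to 3964 and lower ones 4655 to 4780 with each array left out in turn, or 1371 to 1388 and 841 to 893 at 2-fold or more. Against treated wild type basophils the same ranges were 3677 to 3848 higher and 3447 to 3642 lower, or 700 to 799 and 711 to 730 at 2-fold or more. Of the mast cell markers 7 to 9 were lower and of the basophil markers 14 to 15 higher. Without normalization between arrays 2873 probes were lower than in mast cells and 549 at 2-fold or more. With an offset of 50, 533 were at least 2-fold lower than in mast cells and 406 at least 2-fold higher than in the wild type; a larger offset shrinks the folds of dim probes. The replicate numbers did not pair the samples: same-numbered arrays of deleted cells and mast cells had deviations with r of -0.0996, 0.130 and 0.138. With the replicate block 4108 probes were higher and 5106 lower than in mast cells, and 4068 higher and 3811 lower than in the wild type. Of the 178 named genes 163 kept their call against mast cells in every alternative run for them and 145 against the wild type; these were 16, or 15 for Mrgprb1, Mrgprb2 and Tpsab1, which are too dim for the setting without the dimmest probes. None of those that had passed changed direction. Cd63, near the ceiling, was at 0.18 against the wild type and did not pass. With its probes averaged it was at -0.53 and passed (adjusted p = 0.000804). The cause of lost calls was not tested. List medians near 0, such as those of the exocytosis, IgE receptor, G protein-coupled receptor and chymase lists, changed sign without normalization. Probes at background in both groups limit what can be read of Tpsab1, Mrgprb1 and Itga2.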
